A study of Homo sapiens with 60 samples.

Results

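The ERK pathway feedback genes described here are 10 protein-coding genes chosen by name: the dual-specificity phosphatase genes DUSP4, DUSP5 and DUSP6, the Sprouty genes SPRY2 and SPRY4, the Sprouty-related genes SPRED1 and SPRED2, the ETS factor genes ETV4 and ETV5, and PHLDA1. These genes, and the other lists below, were chosen with earlier results of these data known. Their counts beside the shares of all genes are therefore descriptions. All 10 were found among the 60675 genes of the count table, and all 10 were among the 17516 genes that passed the filter on low counts. They were measured by RNA sequencing of SW1783, an established human astrocytoma cell line, after 24 h with a water extract or with vehicle. The study asked how herbal preparations used as tonics change the transcriptome.

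Each preparation was given at 20, 100 and 500 µg/mL, called here the low, medium and high dose. The preparations with 3 libraries per dose were Cnidii Rhizoma (Cnidium), Rehmanniae Radix Preparata (Rehmannia), Cinnamomi Cortex (Cinnamon), Astragali Radix (Astragalus) and the formula Sagunja-tang (Sagunja). The formula Samul-tang (Samul) had 2 libraries per dose, and Angelicae Gigantis Radix (Angelica) and Paeoniae Radix (Paeonia) had 1 per dose. The vehicle group had 3 libraries with 0.1% DMSO. All 60 libraries came from the same line, and no label ties a replicate to a culture of its own; the p-values here thus reflect the spread among these libraries alone, which may be technical. The labels name DMSO for vehicle alone, and the sample codes put vehicle in another set than every extract. Extract, solvent and code set therefore cannot be told apart in a comparison with vehicle, whereas the high and low dose of a preparation share a set.

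Totals ran between 20604792 and 29609799 expected counts per library. Of the astrocyte list, GFAP, S100B, AQP4, ALDH1L1 and SLC1A2 were at or near 0 (means of 0.065, 0.105, 0.0165, 0.0249 and 0.218 CPM, the count scaled to library size). The other members of that list, SLC1A3 and SOX9, averaged 23.3 and 75.9 CPM. The mesenchymal collagen gene COL1A1 averaged 3570 CPM. The summed astrocyte list ran from 55.7 to 117 CPM over the libraries, and its part in the results below was not tested. Sagunja low library 1 stood apart from its 2 replicates, with a mean chi-square per gene of 212 and 215 in its pairs. The median over all 51 replicate pairs was 4.99. Library 1 was also the further one, to a lesser degree, in Sagunja medium (41.7 and 25.4, against 9.94 between libraries 2 and 3). The same held for Astragalus high (25.8 and 35.9, against 3.08) and Cinnamon low (14.7 and 12.2, against 2.74). Calls that were gained or lost when Sagunja low library 1 was left out of the fit are given beside each gene. When a fit held just the 2 groups of a comparison, every Sagunja call against the low dose, and of the low dose against vehicle, was lost (adjusted p = 0.768 and 0.747 for each gene).

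Growth factor receptors pass their signal through RAS, RAF and MEK to the kinase ERK, and active ERK in turn drives transcription of genes that damp the same cascade. Dual-specificity phosphatases remove the activating phosphates from ERK, while Sprouty and SPRED proteins act higher up, at RAS and RAF. ETV4 and ETV5 are ETS transcription factors that ERK induces and activates, and PHLDA1 encodes a small pleckstrin homology-like protein whose transcript is also ERK-inducible. In gliomas, where receptor and RAS signalling is often raised, the levels of these transcripts are widely read as a measure of ERK output.

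SPRY2 (ENSG00000136158, chromosome 13, 80335976 to 80340951, minus strand) and SPRY4 (ENSG00000187678, chromosome 5, 142310427 to 142326455, minus strand) encode Sprouty proteins, which are induced by ERK and inhibit receptor signalling to RAS. Their levels went apart with Cinnamon, as given below, so the bases before their start sites are shown here, with those of SPRED2, whose window holds a match to an ETS core. The windows end at the last base before a RefSeq transcript start on GRCh38.p14, each 250 bases on the minus strand, and capitals mark a CAGGAAG match, written CTTCCTG on the opposite strand. For SPRY2, the first window is chr13:80341127-80341376 and the third chr13:80339660-80339909. For SPRY4 the window is chr5:142324248-142324497, and for the second start of SPRED2 it is chr2:65366779-65367028. The first SPRY2 window lies before the annotated gene, and the others lie within the span of their gene.
SPRY2 start 1: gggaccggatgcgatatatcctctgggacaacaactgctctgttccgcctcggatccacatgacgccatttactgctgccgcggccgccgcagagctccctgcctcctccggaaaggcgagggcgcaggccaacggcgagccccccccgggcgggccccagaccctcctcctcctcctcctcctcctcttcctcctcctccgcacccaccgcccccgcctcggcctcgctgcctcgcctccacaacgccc
SPRY2 start 3: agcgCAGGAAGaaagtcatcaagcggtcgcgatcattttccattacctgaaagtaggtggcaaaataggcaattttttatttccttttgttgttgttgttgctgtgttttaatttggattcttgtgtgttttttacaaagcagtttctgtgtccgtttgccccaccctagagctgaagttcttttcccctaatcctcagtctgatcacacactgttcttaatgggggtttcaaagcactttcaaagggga
SPRY4 start 1: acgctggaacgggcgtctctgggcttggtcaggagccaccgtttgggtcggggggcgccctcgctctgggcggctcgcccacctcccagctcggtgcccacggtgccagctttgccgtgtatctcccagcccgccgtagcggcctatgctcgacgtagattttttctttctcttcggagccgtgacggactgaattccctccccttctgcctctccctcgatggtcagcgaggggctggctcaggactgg
SPRED2 start 2: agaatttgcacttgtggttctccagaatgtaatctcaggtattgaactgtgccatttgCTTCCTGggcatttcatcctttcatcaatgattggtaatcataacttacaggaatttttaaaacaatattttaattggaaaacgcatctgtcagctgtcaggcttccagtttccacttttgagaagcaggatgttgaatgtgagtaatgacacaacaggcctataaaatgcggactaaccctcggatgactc

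The table of promoters held 9 start sites for 6 of the 10 genes. Searched on both strands were the ETS cores CCGGAAG and CAGGAAG, the AP-1 site TGACTCA, the full cyclic AMP element TGACGTCA, its shorter form TGACGT, which the full element contains, and the CArG box of serum response factor. CAGGAAG was found before SPRY2 start 3, SPRED2 start 2 and the SPRED1 start, and in 10.5% of the 35116 windows of the same length in the table. The SPRED1, DUSP6 and PHLDA1 windows lie within the span of their gene, and all 250 bases of each are annotated as untranslated transcript sequence. The other motifs, held by between 1.16% and 8.52% of those windows, had no match in the 9 windows. A match is a description of these letters only.

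The clearest response was that of PHLDA1, which was higher at the high than at the low dose of all 6 replicated preparations. DUSP6 and SPRY2 rose with high-dose Cinnamon and Sagunja, DUSP6 also rose over the low dose with Samul, and DUSP5 rose with Cinnamon alone among the calls between doses. SPRY4 moved the other way from SPRY2 with Cinnamon and fell against both vehicle and the low dose. SPRED1 passed the test in none of the 27 comparisons. Differences were small throughout: the largest called log2 fold change among 270 gene-by-comparison tests had a size of 0.72. Of these 270 tests, 48 were called (29 higher, 19 lower), where called means an adjusted p under 0.05 in edgeR's quasi-likelihood test with Benjamini-Hochberg adjustment over all 17516 genes. The share of all genes called ran from 0.228% to 27.6% over the 27 comparisons. That pooled count is thus to be read through the shares given by comparison below. A call does not separate a change in RNA per cell from a change in the make-up of the culture, since in bulk RNA fewer cells of a type and less RNA per cell cannot be told apart.

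Between the high and the low dose, the number of the 10 genes called ran from 1 to 5. With Cinnamon, 5 were called (4 higher, 1 lower), where 21.6% of all genes tested were called and 10.3% were called higher. With Sagunja, 5 were called, all higher, where 20.5% of all genes were called and 7.93% were higher. Samul gave 2 calls, both higher, where 0.736% of all genes were called and 0.428% were higher. Cnidium, Rehmannia and Astragalus gave 1 call each, PHLDA1 higher, where 0.228%, 0.805% and 0.28% of all genes were called and 0.148%, 0.445% and 0.0971% were higher. With Sagunja low library 1 left out, the counts were 1 for Cnidium, 4 for Rehmannia, 6 for Cinnamon, 2 for Astragalus, 5 for Sagunja and 2 for Samul. The matching shares of all genes were then 0.957%, 3.51%, 35.9%, 1.16%, 6.49% and 1.92%. The median log2 fold change of the 10 genes was 0.09 for Cnidium, 0.18 for Rehmannia, 0.11 for Cinnamon, 0.1 for Astragalus, 0.22 for Sagunja and 0.06 for Samul, beside a median of all genes between -0.02 and 0.

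**Figure D1:**
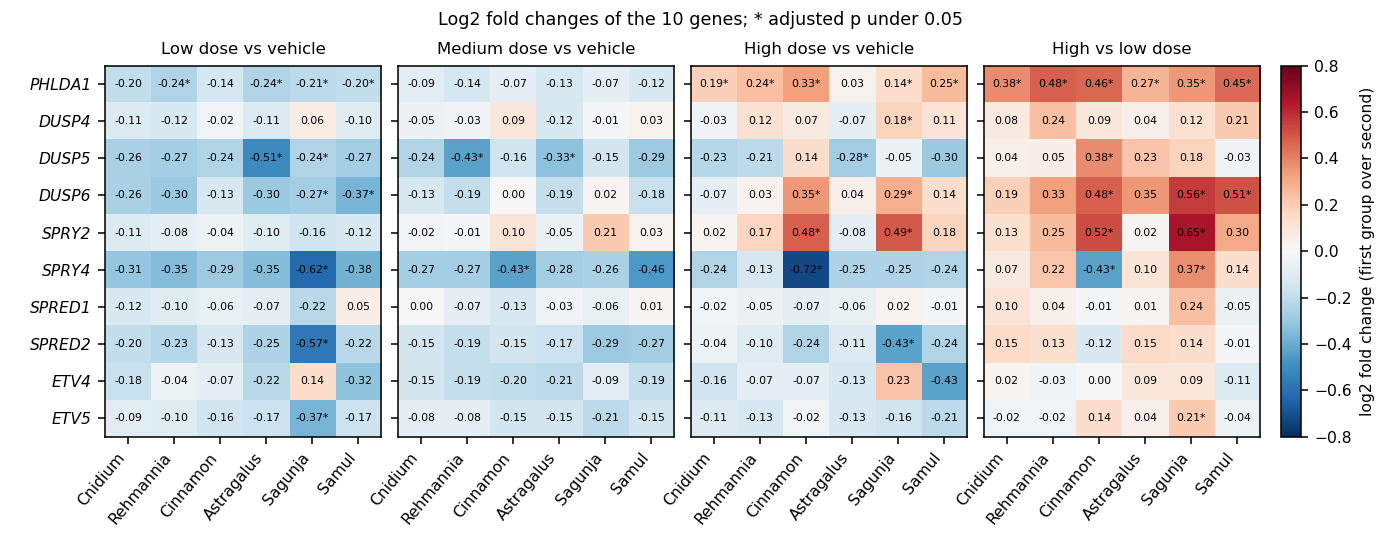
Log2 fold changes of the 10 genes (lines) in the 6 replicated preparations (columns), for the low, medium and high dose over vehicle and for the high over the low dose. Red is higher and blue lower in the first group named, and an asterisk marks an adjusted p under 0.05. PHLDA1 is marked in all 6 columns between high and low dose, and Cinnamon high over vehicle holds the largest called size, -0.72 for SPRY4.

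PHLDA1 (ENSG00000139289, chromosome 12, 76025447 to 76033932 on GRCh38, minus strand) was higher at the high dose in every library of every preparation than in any low-dose library. Over the 19 high-dose libraries it ran from 231 to 305 CPM with a median of 272, and over the 19 low-dose libraries from 186 to 220 with a median of 209. PHLDA1 was the 1 gene, 0.00571% of the 17516 tested, for which the 2 sets of libraries did not overlap in this direction. That ordering pools preparations, was looked at after the values were known, and is given as a description with no test.

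With Cnidium, PHLDA1 had 277, 269 and 272 CPM at the high dose, against 211, 209 and 207 CPM at the low dose. The log2 fold change was 0.38 ± 0.05 (standard error; adjusted p = 1.2e-05). With Rehmannia it had 275, 281 and 289 CPM at the high dose, against 195, 197 and 216 CPM at the low dose (0.48 ± 0.05, adjusted p = 8.7e-09). Neither pair of groups overlapped. With Cinnamon the high dose gave 292, 304 and 305 CPM, the highest PHLDA1 levels of the series, against 217, 220 and 216 CPM at the low dose (0.46 ± 0.05, adjusted p = 8.67e-10). Samul gave 288 and 283 CPM at the high dose, against 207 and 211 CPM at the low dose (0.45 ± 0.06, n = 2 each, adjusted p = 3.65e-06).

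The smallest difference in PHLDA1 between doses was with Astragalus, at 231, 250 and 251 CPM for the high dose, against 205, 201 and 201 CPM for the low dose (0.27 ± 0.05, adjusted p = 0.00228). Its groups did not overlap, but the call was lost with only these 2 groups in the fit (adjusted p = 0.18). It was also lost with no filter on low counts and without edgeR's robust option (0.35). With Sagunja the values were 272, 260 and 259 CPM at the high dose, against 186, 219 and 216 CPM at the low dose (0.35 ± 0.05, adjusted p = 1.67e-06). Without Sagunja low library 1, the lowest of these, the log2 fold change was 0.28 (adjusted p = 3.8e-06). In the single libraries of Angelica and Paeonia, PHLDA1 stood at 258 and 268 CPM at the high dose, against 209 and 192 CPM at the low dose. On the log2(CPM + 1) scale those differences were 0.3 and 0.47 and had no replicate check.

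Against vehicle, at 242, 238 and 239 CPM, PHLDA1 was higher at the high dose and lower at the low dose. It was called higher in 5 of 6 high-dose groups, with log2 fold changes of 0.33 ± 0.05 for Cinnamon (adjusted p = 1.77e-06), 0.25 ± 0.05 for Samul (0.00301), 0.24 ± 0.05 for Rehmannia (0.00313), 0.19 ± 0.05 for Cnidium (0.0407) and 0.14 ± 0.05 for Sagunja (0.0446). Astragalus high differed from vehicle by 0.03 (95% interval -0.07 to 0.13, adjusted p = 0.863). At the low dose it was called lower in 4 of 6 groups, between -0.2 ± 0.06 for Samul (adjusted p = 0.0405) and -0.24 ± 0.05 for Rehmannia and Astragalus (0.00529 and 0.0025). All 19 low-dose libraries and 17 of the 19 medium-dose libraries lay below every vehicle library, while 18 of the 19 high-dose libraries lay above every one. Of all genes tested, 2% had all 19 low-dose libraries below, 6.35% at least 17 medium-dose libraries below and 1.87% at least 18 high-dose libraries above every vehicle library. The calls for Cnidium high and Sagunja high rested on all libraries, since leaving out any 1 vehicle or extract library of either pair gave an adjusted p between 0.0649 and 0.173. The Samul low call was lost in the same way (0.0808 to 0.358). Samul high lost its call without its library 1 (0.0932), and Rehmannia low without its library 1 or 2 (0.0516 and 0.057). With no filter on low counts and without edgeR's robust option, Cnidium, Rehmannia, Sagunja and Samul high lost their calls (0.178 to 0.74). Rehmannia, Astragalus and Samul low lost theirs in the same fit (0.169 to 0.497), and Sagunja low lost its call there too. In the fit without Sagunja low library 1, PHLDA1 was called lower than vehicle in 6 of 6 low-dose and 3 of 6 medium-dose groups (adjusted p up to 0.0371), and higher in 5 of 6 high-dose groups. The shared vehicle libraries enter all of these differences.

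**Figure D2:**
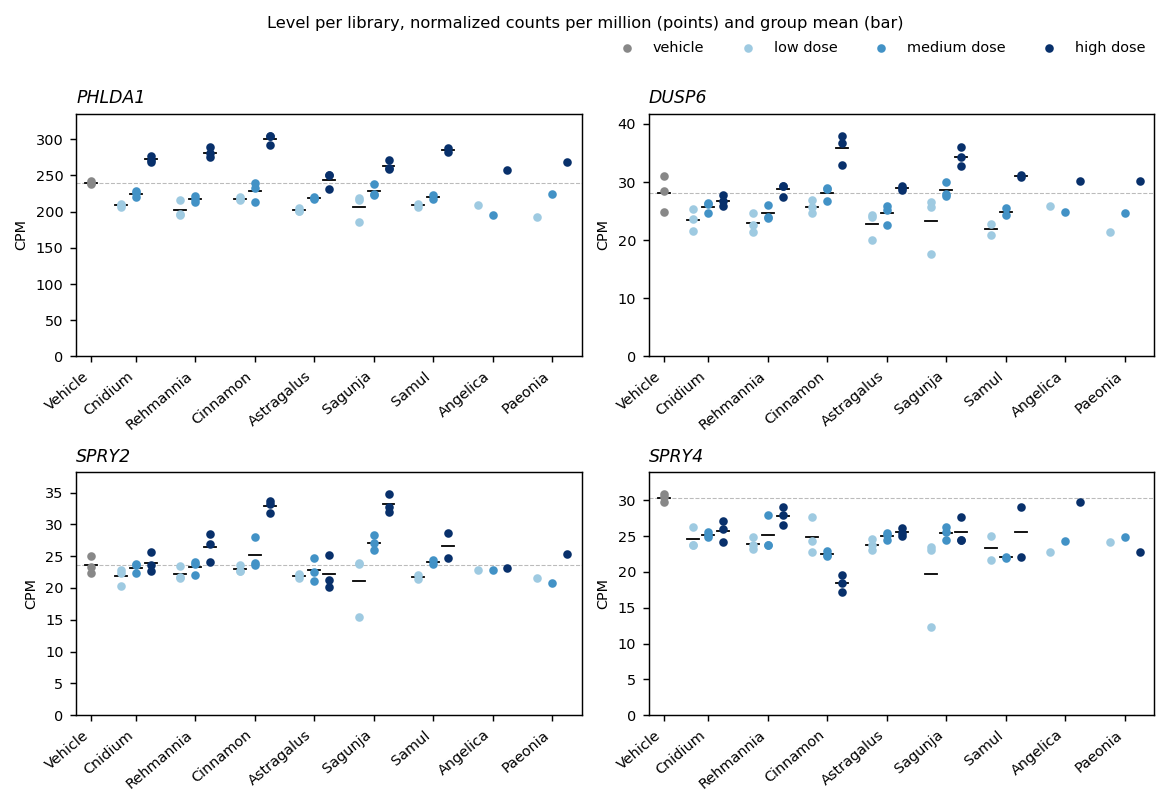
CPM of PHLDA1, DUSP6, SPRY2 and SPRY4 in each of the 60 libraries (points), by preparation, with the low, medium and high dose from left to right, bars at group means and a dashed line at the vehicle mean. High-dose points of PHLDA1 run from 231 to 305 and low-dose points from 186 to 220. Cinnamon high points of SPRY4 lie at 17.2 to 19.6, below all others except Sagunja low library 1 at 12.3.

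DUSP6 (ENSG00000139318, chromosome 12, 89347232 to 89353271), which encodes the cytoplasmic phosphatase most specific for ERK, followed a similar order with fewer calls between doses. With Cinnamon it had 33, 36.7 and 38 CPM at the high dose, against 24.7, 26.9 and 25.7 CPM at the low dose (0.48 ± 0.09, adjusted p = 0.000103). With Sagunja it had 34.3, 32.8 and 36.1 CPM at the high dose, against 17.7, 25.8 and 26.5 CPM at the low dose (0.56 ± 0.09, adjusted p = 3.38e-05). Neither pair overlapped, and without Sagunja low library 1 the Sagunja difference was 0.4 (adjusted p = 0.000218). With Samul, DUSP6 had 30.8 and 31.2 CPM at the high dose, against 22.8 and 20.9 CPM at the low dose (0.51 ± 0.11, n = 2 each, adjusted p = 0.0149). That call needed all 4 libraries: leaving out any 1 gave adjusted p-values between 0.0835 and 0.403.

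In the other 3 replicated preparations DUSP6 was also above its low dose in every library but was not called. Such a separation upward was found for 11.3% of all genes with Rehmannia, 6.98% with Astragalus and 9.53% with Cnidium. The log2 fold changes of DUSP6 were 0.33 ± 0.09 for Rehmannia (adjusted p = 0.0886), 0.35 ± 0.09 for Astragalus (0.111) and 0.19 ± 0.09 for Cnidium (0.936). Leaving out Sagunja low library 1, Rehmannia and Astragalus were called (0.00281 and 0.00258). Of the 19 high-dose libraries, 17 lay above every low-dose library, as at least 17 did for 0.0285% of all genes. Against vehicle, at 31.0, 28.5 and 24.9 CPM, DUSP6 was called higher with Cinnamon high (0.35 ± 0.09, adjusted p = 0.00374) and Sagunja high (0.29 ± 0.09, adjusted p = 0.0221). It was called lower with Samul low (-0.37 ± 0.1, adjusted p = 0.047) and Sagunja low (-0.27 ± 0.09, adjusted p = 0.0337). Sagunja low was -0.13 without its library 1 (adjusted p = 0.306) and also lost its call without vehicle library 1 or 2 (0.198 and 0.0819). Sagunja high lost its call without vehicle library 3, its own library 1 or its own library 3 (0.167, 0.0536 and 0.0958). Samul low lost it without vehicle library 1 or 2, or without either Samul library (0.115 to 0.464). Calls gained without Sagunja low library 1, all lower than vehicle, were Cnidium low (-0.26, adjusted p = 0.0352), Rehmannia low (-0.31, 0.00544), Astragalus low (-0.32, 0.00144) and Astragalus medium (-0.2, 0.0416).

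DUSP5 (ENSG00000138166, chromosome 10, 110497838 to 110511544), the nuclear ERK phosphatase, was low against vehicle in most groups and rose with Cinnamon. Cinnamon high had 18.8, 17.7 and 16.9 CPM, against 14.4, 12.7 and 14.1 CPM at the low dose (0.38 ± 0.09, adjusted p = 0.000966). Vehicle libraries stood at 15.3, 17.7 and 15.5 CPM, so the Cinnamon high libraries overlapped vehicle (0.14 ± 0.08, adjusted p = 0.263). Astragalus was called lower than vehicle at all 3 doses, with 11.3, 10.7 and 12.1 CPM at the low dose (-0.51 ± 0.09, adjusted p = 0.000315), 14.2, 11.9 and 12.5 CPM at the medium dose (-0.33 ± 0.09, adjusted p = 0.0188) and 14.9, 12.3 and 12.7 CPM at the high dose (-0.28 ± 0.09, adjusted p = 0.046). Rehmannia medium was also called lower (-0.43 ± 0.09, adjusted p = 0.00504), as was Sagunja low (-0.24 ± 0.09, adjusted p = 0.0447). In all, 51 of 57 extract libraries lay below every vehicle library for DUSP5, as at least 51 did for 4.37% of all genes. Once Sagunja low library 1 was left out, Samul low, medium and high (-0.29, -0.31 and -0.31, adjusted p of 0.0328, 0.0238 and 0.0188) and Rehmannia low (-0.27, 0.0456) were called lower too. Vehicle library 2 was the highest of its group, and without it the calls for Astragalus medium, Astragalus high, Rehmannia medium and Sagunja low were lost (adjusted p of 0.159, 0.318, 0.0957 and 0.235), while that for Astragalus low held (0.00889). The Sagunja low call was also lost without Sagunja low library 1 (-0.21, adjusted p = 0.141) or library 2 (-0.2, 0.098), and without vehicle library 1 or 3 (0.0549 and 0.0613). Astragalus high kept its call without its own library 1 alone among its 6 libraries, Astragalus medium lost it without its own library 2 or 3 (0.132 and 0.0993), and Rehmannia medium without its own library 2 (0.0541).

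DUSP4 (ENSG00000120875, chromosome 8, 29333064 to 29350668), a nuclear phosphatase of ERK and related kinases, had 1 call. Sagunja high had 116, 114 and 127 CPM, against 112, 102 and 102 CPM with vehicle (0.18 ± 0.06, adjusted p = 0.0432). This call was lost without vehicle library 2 or 3 or Sagunja high library 1 or 3 (adjusted p of 0.0546 to 0.239). It held in 8 of the 14 alternatives tried. The highest adjusted p was 0.301, with no filter on low counts and without edgeR's robust option. Between doses its log2 fold change ran from 0.04 with Astragalus to 0.24 with Rehmannia. In Rehmannia the libraries had 110, 111 and 122 CPM at the high dose, against 93.9, 95.9 and 101 CPM at the low dose, without overlap (adjusted p = 0.0594). That difference was called without Sagunja low library 1 (0.24, adjusted p = 0.00586), and so was DUSP4 between Sagunja high and low (0.2, adjusted p = 0.0415).

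SPRY2 was called higher with high-dose Cinnamon and Sagunja, and with none of the other replicated preparations in the fit with all libraries. With Cinnamon it had 33.2, 33.7 and 31.8 CPM at the high dose, against 22.6, 23.6 and 22.6 CPM at the low dose (0.52 ± 0.1, adjusted p = 6.59e-05). With Sagunja it had 34.7, 32.7 and 32.0 CPM at the high dose, against 15.4, 23.8 and 24.0 CPM at the low dose (0.65 ± 0.1, adjusted p = 5.83e-06). Against vehicle, at 22.4, 25.0 and 23.3 CPM, the high doses differed by 0.48 ± 0.1 for Cinnamon (adjusted p = 0.000186) and by 0.49 ± 0.1 for Sagunja (adjusted p = 0.000233). All 6 of these high-dose libraries were above every vehicle and every low-dose library. Without Sagunja low library 1 the Sagunja difference between doses was 0.48 (adjusted p = 2.07e-05). Sagunja medium lay between the other doses, at 27.1, 28.3 and 26.0 CPM, above every vehicle library but not called (0.21, adjusted p = 0.222). Astragalus high had 20.1, 21.3 and 25.2 CPM, against 21.5, 22.2 and 22.1 CPM at the low dose, with a log2 fold change of 0.02 and a 95% interval of -0.18 to 0.21. Rehmannia high was called over its low dose when Sagunja low library 1 was left out (0.25, adjusted p = 0.0321, against 0.34 with it).

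SPRY4 was below vehicle in nearly every treated library. Vehicle stood at 29.8, 30.5 and 30.8 CPM, and 56 of the 57 extract libraries were lower than all 3, the other being the single Angelica high library at 29.8. At least 56 extract libraries were below every vehicle library for 1.01% of all genes tested. In the fit with all libraries, SPRY4 was called lower than vehicle with Cinnamon high, Cinnamon medium and Sagunja low. Once Sagunja low library 1 was left out, it was called lower in 6 of 6 low-dose groups, 6 of 6 medium-dose groups and 5 of 6 high-dose groups, with adjusted p-values up to 0.0308 among the called ones. With Rehmannia low, for example, the log2 fold change was -0.36 without that library and -0.35 with it, while the adjusted p was 0.0012 without it and 0.186 with it. SPRY4 gained 14 calls in this way, the most of the 10 genes, and what in that library moved them was not tested. In all of them solvent and code set cannot be told apart from the extracts.

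With Cinnamon, SPRY4 was lower the higher the dose. Its libraries had 27.6, 22.8 and 24.3 CPM at the low dose, 22.4, 22.2 and 22.9 CPM at the medium dose and 18.4, 19.6 and 17.2 CPM at the high dose. High dose was below low dose without overlap (-0.43 ± 0.12, adjusted p = 0.00536), and below vehicle by -0.72 ± 0.12 (adjusted p = 6.78e-06). The call against vehicle held in all 14 alternatives tried (adjusted p up to 0.000201). Without Cinnamon low library 1, the highest of its group, the difference between doses was -0.35 and just missed the threshold (adjusted p = 0.054). Cinnamon medium against vehicle (-0.43 ± 0.11, adjusted p = 0.0306) lost its call without any 1 of its 6 libraries (0.0701 to 0.13). In Sagunja, SPRY4 had 24.5, 24.4 and 27.7 CPM at the high dose, against 12.3, 23.1 and 23.5 CPM at the low dose (0.37 ± 0.12, adjusted p = 0.0236). Without low library 1 this difference was 0.14 (adjusted p = 0.432), and without Sagunja high library 3 it was 0.31 (adjusted p = 0.111). The antisense gene SPRY4-AS1 overlaps SPRY4 and had 1.43% of its expected counts, and the labels do not say whether counting used strand.

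SPRED1 (ENSG00000166068, chromosome 15, 38252326 to 38357249) and SPRED2 (ENSG00000198369, chromosome 2, 65310851 to 65432637) encode membrane-bound inhibitors that bring neurofibromin to RAS. SPRED1 hardly moved. Apart from Sagunja low library 1, at 30 CPM, its extract libraries ran between 47.1 and 63.4 CPM, on both sides of vehicle at 58.8, 59.1 and 58.0 CPM. Of all 57 extract libraries, 35 lay below every vehicle library and 14 above every one. The widest dose difference was 0.24 with Sagunja (95% interval -0.02 to 0.49, adjusted p = 0.167), and for Cinnamon it was -0.01 (interval -0.26 to 0.25). Without Sagunja low library 1 the Sagunja difference was -0.02 (adjusted p = 0.954). Over the 6 preparations the intervals reached down to -0.36 with Samul and up to 0.49 with Sagunja.

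In the fit with all libraries SPRED2 was called lower than vehicle with Sagunja high and low, and without Sagunja low library 1 in 9 of 18 groups. Sagunja high had 28.3, 27.1 and 28.5 CPM, against 39.1, 35.2 and 39.0 CPM with vehicle (-0.43 ± 0.15, adjusted p = 0.0359). The groups did not overlap, but the call was lost without vehicle library 1 or 3 or without any 1 of the 3 Sagunja high libraries (adjusted p of 0.0738 to 0.108). Sagunja low was called lower too (-0.57 ± 0.15, adjusted p = 0.00653) with libraries at 12.4, 31.8 and 31.5 CPM. Without the lowest, library 1, its log2 fold change was -0.27 (adjusted p = 0.0235). Between Sagunja doses the difference was 0.14 (adjusted p = 0.522), and -0.17 without that library (adjusted p = 0.273). No SPRED2 library of any extract was above every vehicle library, and 48 of 57 were below every one, as at least 48 were for 6.54% of all genes. The calls gained without Sagunja low library 1 were Cinnamon high (-0.26, adjusted p = 0.00461), Samul high, medium and low (-0.25, -0.29 and -0.24, adjusted p of 0.0345, 0.0166 and 0.0427), Sagunja medium (-0.3, 0.00296), Rehmannia low (-0.24, 0.0463) and Astragalus low (-0.27, 0.0094).

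ETV4 (ENSG00000175832, chromosome 17, 43527844 to 43579620) and ETV5 (ENSG00000244405, chromosome 3, 186046308 to 186110318) encode PEA3-family ETS factors. In the fit with all libraries ETV4 had 1 call, between formulas: 10.5, 9.02 and 8.96 CPM with Sagunja high, against 6.03 and 5.95 CPM with Samul high (0.67 ± 0.18, adjusted p = 0.0112). It was lost without Sagunja high library 1 (0.59, adjusted p = 0.0632) and without either Samul library (0.072 and 0.124). Between the high and low dose of Sagunja, ETV4 differed by 0.09 (adjusted p = 0.69), with low-dose libraries at 13.8, 6.93 and 6.35 CPM. Without low library 1, the highest of the series, it was called higher at the high dose (0.52, adjusted p = 0.00326), and ETV4 was called lower in Samul high than in vehicle (-0.44, adjusted p = 0.0111). ETV4 shares its place in the genome with DHX8 on the opposite strand, which had 863% of its expected counts, so its values are uncertain if counting ignored strand. ETV5 overlaps DGKG on the same strand, with 10.1% of its counts. For ETV5, vehicle had 126, 122 and 129 CPM, and 54 of 57 extract libraries were below every one of these, as at least 54 were for 2.2% of all genes. In the fit with all libraries, the calls were Sagunja low against vehicle (-0.37 ± 0.08, adjusted p = 0.00123, libraries at 72.7, 110 and 110 CPM) and Sagunja high against low (0.21 ± 0.08, adjusted p = 0.0459). Without Sagunja low library 1, the second was 0.04 (adjusted p = 0.737) and the first -0.21 (adjusted p = 0.00273). The second was lost as well without any 1 of the Sagunja high libraries (0.0767 to 0.11). With Sagunja low library 1 left out, ETV5 was called lower than vehicle in 4 of 6 groups at each dose (adjusted p up to 0.041), and higher at the high than the low dose of Cinnamon (0.14, adjusted p = 0.0102).

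**Figure D3:**
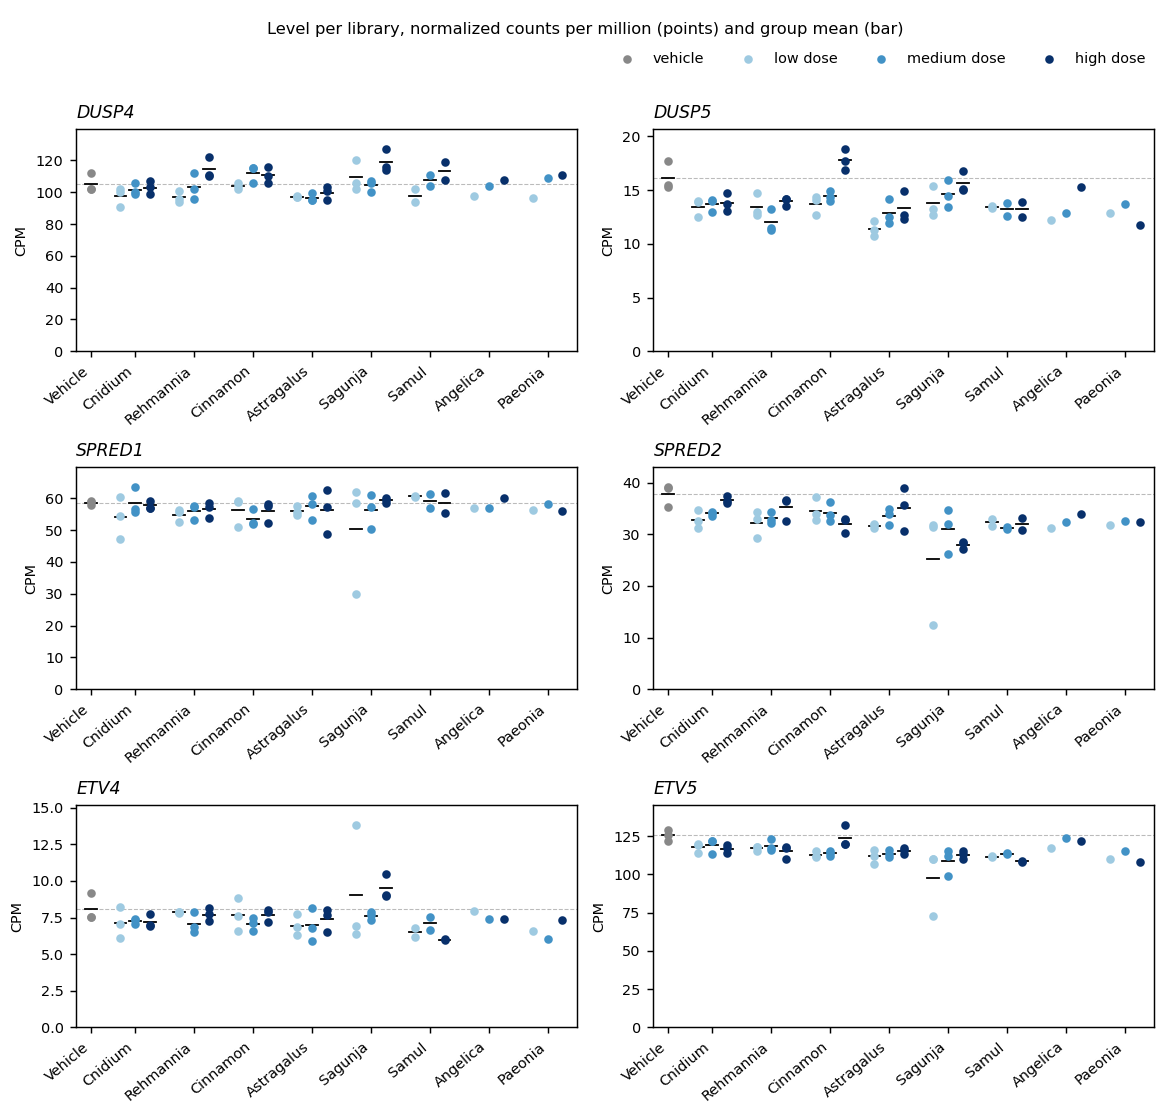
CPM of DUSP4, DUSP5, SPRED1, SPRED2, ETV4 and ETV5 in each library (points), drawn as for the genes above, with bars at group means and a dashed line at the vehicle mean. Sagunja low library 1 is the lowest point for SPRED1 (30), SPRED2 (12.4) and ETV5 (72.7) and the highest for ETV4 (13.8).

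Sagunja low library 1 departed from its replicates in most of the 10 genes. It had 30 CPM of SPRED1, against 58.5 and 62 CPM in the other 2 libraries of its group, and 12.4 CPM of SPRED2, against 31.8 and 31.5 CPM. For DUSP6, SPRY2, SPRY4, SPRED1, SPRED2, ETV5 and PHLDA1 it was below all 16 low-dose libraries of other preparations, and for DUSP4 and ETV4, at 120 and 13.8 CPM, above all of them. DUSP5 alone lay within their range, at 12.7 CPM. Its total of 20604792 expected counts was the lowest of the series, and its scaling factor of 0.936 was the lowest too. What set it apart was not tested.

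Against vehicle at the high dose, 5 of the 10 genes were called with Sagunja (4 higher, 1 lower), where 17.1% of all genes were called, and 4 with Cinnamon (3 higher, 1 lower), where 22.8% were. Cnidium, Rehmannia and Samul gave 1 call each, PHLDA1, against 1.35%, 2.37% and 4.13% of all genes. Astragalus gave 1, DUSP5, against 4.45%. At the medium dose Rehmannia, Cinnamon and Astragalus gave 1 call each, all lower, against 0.714%, 2.29% and 3.94% of all genes. Cnidium, Sagunja and Samul gave none at that dose, where 0.297%, 6.32% and 1.75% of all genes were called. At the low dose Sagunja gave 6, Astragalus 2, Samul 2 and Rehmannia 1, all lower, where 22.1%, 3.67%, 2.62% and 0.993% of all genes were called and 8.45%, 2.03%, 1.22% and 0.257% were called lower. Cnidium and Cinnamon gave none at the low dose, where 0.383% and 1.06% of all genes were called and 0.0856% and 0.383% were called lower. Among the comparisons with no call, an unadjusted p under 0.05 was reached by 2 of the 10 genes in Cnidium medium, 3 in Sagunja medium, 3 in Samul medium, 4 in Cnidium low and 4 in Cinnamon low. DESeq2 called 1 gene in each of the last 4 of these and 0 in Cnidium medium.

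The counts against vehicle without Sagunja low library 1 were larger in all groups but Sagunja low, and so were the shares of all genes called. At the low dose they were 3 for Cnidium, 5 for Rehmannia, 3 for Cinnamon, 6 for Astragalus, 4 for Sagunja and 6 for Samul, all lower. The matching shares of all genes were 1.79%, 3.64%, 5.45%, 14.1%, 11.4% and 13.2%. At the medium dose they were 1 for Cnidium, 3 for Rehmannia, 2 for Cinnamon, 5 for Astragalus, 3 for Sagunja and 5 for Samul, with 1.37%, 2.93%, 7.43%, 13.9%, 17.6% and 11.3% of all genes called. At the high dose they were 2 for Cnidium, 2 for Rehmannia, 5 for Cinnamon, 3 for Astragalus, 7 for Sagunja and 6 for Samul. There the shares were 5.57%, 7.65%, 35.9%, 12.7%, 30.9% and 13.4%. The median log2 fold change of the 10 genes at the low dose, over all libraries, ran from -0.23 with Astragalus and Sagunja to -0.13 with Cinnamon, beside a median of all genes between 0 and 0.03. All of these comparisons share the same 3 vehicle libraries.

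At the high dose, preparations of the same code set could be compared without vehicle. Cinnamon high against Astragalus high gave 5 calls among the 10 genes, where 27.6% of all genes were called. SPRY2 was higher by 0.57 ± 0.1 (adjusted p = 1.29e-05), DUSP5 by 0.42 ± 0.09 (0.00018), DUSP6 by 0.31 ± 0.09 (0.00885) and PHLDA1 by 0.3 ± 0.05 (6.61e-06), and SPRY4 was lower (-0.47 ± 0.12, adjusted p = 0.00198). For each of these 5 genes the libraries of the 2 preparations did not overlap. Of the 10 genes, 6 lay above and 1 below without overlap, where 21.6% and 21.4% of all genes did. The DUSP6 call was lost without Cinnamon high library 3 (0.26, adjusted p = 0.0526). Sagunja high against Samul high gave 1 call, ETV4, where 8.36% of all genes were called. SPRY2 was 0.31 higher with Sagunja and missed the threshold (adjusted p = 0.0625), and was called without Sagunja low library 1 (0.00277). In that fit PHLDA1 was called lower in Sagunja high than in Samul high (-0.12, adjusted p = 0.0428), giving 3 calls where 17.6% of all genes were called. DUSP4 was then called higher in Cinnamon high than in Astragalus high (0.14, adjusted p = 0.034), where 41.3% of all genes were called. Cnidium high against Rehmannia high gave none, where 0.263% of all genes were called. There the 95% interval was -0.15 to 0.05 for PHLDA1 and -0.34 to 0.12 for SPRY4. Of the 10 genes, DUSP4 alone passed an unadjusted p under 0.05 (0.0204), and DESeq2 called 0.

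Over the 25 group means of log2(CPM + 1), DUSP6 ran most alike with PHLDA1 (Pearson r = 0.87) and SPRY2 (0.85). SPRY2 and PHLDA1 gave 0.72, DUSP4 and DUSP6 0.72, and SPRED2 and ETV5 0.69. The lowest value was -0.34, for SPRED2 with ETV4. The points share scaling, and Sagunja low library 1 was low for all of these but DUSP4 and ETV4, so these are descriptions. Among 10940 other genes with enough counts, the one most like PHLDA1 and DUSP6 was RGMB, a bone morphogenetic protein co-receptor gene (0.88 for both). CLMP, an adhesion molecule gene, was most like SPRY2 (0.95) and second for DUSP6 (0.85). For SPRY4 it was ARHGAP11A (0.85), a RhoA GTPase-activating protein gene, for SPRED2 POM121C (0.91), for ETV5 TMEM248 (0.87), for SPRED1 VCPIP1 (0.87), for DUSP4 ASB1 (0.84), for DUSP5 RCL1 (0.79) and for ETV4 CD82 (0.75).

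Other genes of the pathway were counted in 5 lists, to be read against the shares of all genes called between doses: 21.6% for Cinnamon (10.3% higher), 20.5% for Sagunja (7.93% higher) and 0.228% to 0.805% for the other 4 preparations. Counts without Sagunja low library 1 are to be read against larger shares for all preparations but Sagunja. Those were 35.9% for Cinnamon, 6.49% for Sagunja, 3.51% for Rehmannia, 1.92% for Samul, 1.16% for Astragalus and 0.957% for Cnidium. Of 21 core cascade genes, from receptor adaptors such as GRB2 down to ERK, 3 were called higher at the high than the low dose of Cinnamon and 0 lower. Among the 3 was MAP2K1, which encodes MEK1 (90.6 CPM at the high dose, against 68.4 CPM at the low dose, 0.41 ± 0.08, adjusted p = 0.000209). With Sagunja 3 were higher and 2 lower, including the scaffold gene KSR1 (0.47 ± 0.1, adjusted p = 0.000954). Without Sagunja low library 1, 1 was higher and 0 lower, KSR1 remaining called at 0.27 ± 0.07 (adjusted p = 0.0143) and HRAS differing by 0.07 (adjusted p = 0.794), against -0.71 ± 0.21 with it (0.0152). Cinnamon gave 5 higher and 2 lower in that fit. No core gene was called between doses of the other 4 preparations, with or without that library. Of 20 other negative regulators tested, Cinnamon raised 1, LRIG1, which restrains receptor tyrosine kinases (0.52 ± 0.09, adjusted p = 3.75e-05), and lowered 1, SPRED3 (-0.38 ± 0.11, adjusted p = 0.00796), with 3 higher and 3 lower without Sagunja low library 1. Rehmannia gave no call in this list, but 2 higher and 2 lower without that library. Sagunja raised 4, among them the immediate early phosphatase gene DUSP1 (55.6 CPM, against 37.8 CPM at the low dose, 0.56 ± 0.07, adjusted p = 6.28e-07), and lowered 1. Without low library 1 it raised 1, DUSP1 (0.61 ± 0.08, adjusted p = 5.42e-08), and lowered 0. In Samul, LRIG1 rose (0.53 ± 0.11, adjusted p = 0.0114) and DUSP10 fell (-0.65 ± 0.13, adjusted p = 0.0042).

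Of 19 other ERK-induced transcripts, Sagunja raised 8 and lowered 3 between doses (7 and 2 without low library 1), and Cinnamon raised 2 and lowered 6. IER3, an early response gene, had 14.7 CPM at the high dose of Sagunja, against 3.35 CPM at the low dose (2.15 ± 0.15, adjusted p = 3.22e-14), and the difference was 2.42 ± 0.15 without low library 1 (4.08e-18). EPHA2, a receptor gene that ERK induces, was lower at the high dose of Cinnamon, with 169 CPM, against 250 CPM at the low dose (-0.57 ± 0.07, adjusted p = 5.25e-08). LIF, a cytokine gene, was higher at the high dose of 4 preparations, by 1.61 ± 0.13 with Sagunja (adjusted p = 1.1e-12), 1.11 ± 0.13 with Rehmannia (1.31e-07) and 0.57 ± 0.13 with Cnidium (0.031). In Samul it had 66.2 CPM at the high dose, against 27.8 CPM at the low dose (adjusted p = 1.55e-06). EGR3, an early growth response factor, was lower with both Cinnamon (-0.7 ± 0.16, adjusted p = 0.00117) and Sagunja (-0.66 ± 0.18, adjusted p = 0.0084). Cnidium and Rehmannia each gave 1 call in this list, LIF (3 higher for Rehmannia without Sagunja low library 1, as for Cinnamon), and Samul gave 2, LIF and EGR1 (0.79 ± 0.15, adjusted p = 0.00183).

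Of 15 receptor tyrosine kinase genes, Cinnamon lowered 3 and raised 1: KIT had 27 CPM at the high dose, against 50.8 CPM at the low dose (-0.91 ± 0.16, adjusted p = 4.31e-05), and FGFR1 was higher (0.24 ± 0.06, adjusted p = 0.00165). FGFR3, with group means between 1.48 and 3.17 CPM, was lower with Cinnamon (-0.74 ± 0.16, adjusted p = 0.000471). It was the only receptor called with Rehmannia (-0.62 ± 0.15, adjusted p = 0.0276) or Samul (-0.83 ± 0.19, adjusted p = 0.022), lower in both. Sagunja raised 1, EGFR (0.45 ± 0.17, adjusted p = 0.0492), and lowered 2, but without low library 1 it raised 0 and lowered 4, with EGFR at 0.09 (adjusted p = 0.496). Of 14 growth factor ligand genes, Sagunja raised 7 and lowered 1, with FGF2 at 469 CPM at the high dose, against 218 CPM at the low dose (1.1 ± 0.17, adjusted p = 1.32e-05). Without low library 1 it raised 6 and lowered 0, and FGF2 differed by 0.74 ± 0.07 (1.77e-12). Cinnamon raised 1 ligand and lowered 5, among them FGF7 (-0.46 ± 0.11, adjusted p = 0.00207). HGF, the ligand of MET, was higher with Rehmannia (0.53 ± 0.08, adjusted p = 7.1e-05) and Samul (0.51 ± 0.1, adjusted p = 0.00384). Leaving out Sagunja low library 1, the ligands called higher were 5 for Rehmannia, 3 for Samul, 2 for Cinnamon and 1 for Cnidium, and among receptors Samul lowered 2 and Rehmannia raised 1 and lowered 1. Astragalus gave no call between doses in any of the 5 lists with all libraries. Without that library it gave 1 higher negative regulator, 1 higher ERK-induced transcript, 1 lower receptor, and 1 higher and 1 lower ligand, where 1.16% of all genes were called.

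**Figure D4:**
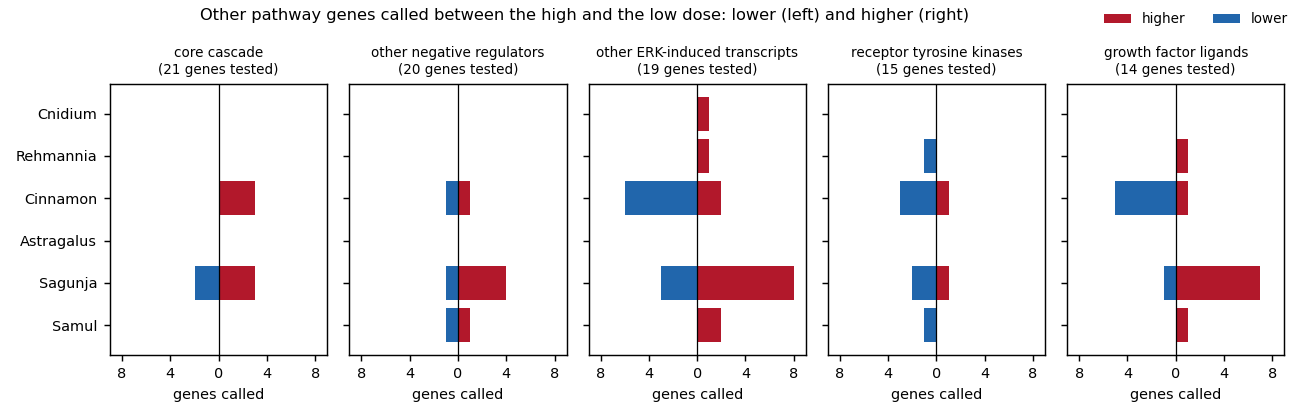
Number of genes called higher (right, red) and lower (left, blue) at the high than at the low dose, for the 6 replicated preparations and 5 lists of other ERK pathway genes, each titled with the number of genes tested. Sagunja has 8 higher and 3 lower among the other ERK-induced transcripts, and Cinnamon 2 higher and 6 lower, where 20.5% of all genes were called with Sagunja and 21.6% with Cinnamon.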

How the data were processed

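RNA from SW1783 cells was sequenced as 100-base pairs from a strand-specific kit, per the labels' protocols. The submitters' processing notes name hg38, RSEM 1.3.3, STAR 2.7.3a, FastQC 0.11.9 and Trim Galore 0.6.5. Neither an annotation release nor a strand setting appears in the labels. The deposited table holds RSEM expected counts (estimated counts) made by the authors, of which 90.67% are whole numbers; 219 of its 279 columns belong to no sample here and were not used.

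Expected counts were rounded and fitted with edgeR 4.0.16 (quasi-likelihood test, R 4.3.3) over 54 libraries of 19 replicated groups, after edgeR's expression filter (17516 genes) and TMM scaling, with 35 residual degrees of freedom. Benjamini-Hochberg adjustment ran over all genes within each of 27 comparisons. DESeq2 1.42.0 and other settings were alternatives. Single libraries were compared as log2(CPM + 1) with no test. The fit was tested on simulated data. Genes besides the 10 were named as the up to 4 largest called changes of a list with a mean of at least 1 CPM in either group, and the genes most alike by Pearson r among those averaging at least 5 CPM. Gene positions are from GENCODE 29 and promoters from RefSeq (GRCh38.p14). Genes and lists were chosen with earlier results of these data known. The design text gives another DMSO percentage than the labels, whose value is used here.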

Additional observations from a re-analysis of the deposited data

How the results depend on the processing

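No log2 fold change of the 10 genes that was called changed sign under any alternative. Over the 270 tests, calls lost and gained were 2 and 3 with RLE size factors, 9 and 1 with library size alone, 17 and 2 with no filter and no robust option (chosen after seeing the data, like the robust option alone, 0 and 1), 0 and 4 with the replicate block, 0 and 14 with DESeq2, 13 and 51 with only the groups compared, and 4 and 56 without Sagunja low library 1. Replicate numbers were not used to pair the samples in the main fit. Correlations of same-numbered deviations ran from -0.28 to 0.23. Every library correlated best with its own number between doses of Cnidium, Astragalus and Samul and for Sagunja medium with vehicle, so some replicate structure may be present. Which property of the libraries or settings moved the counts was not tested.
Counts of genes called under each setting, where they moved by over 1.5 times, were as follows. With only the groups compared, the high dose against vehicle gave 4 for Cnidium, 2 for Rehmannia and 5 for Samul; the medium dose 2 for Cnidium, 4 for Rehmannia, 5 for Astragalus, 2 for Sagunja and 5 for Samul; the low dose 4 for Cnidium, 5 for Rehmannia, 7 for Astragalus, 0 for Sagunja and 7 for Samul. High against low then gave 5 for Rehmannia, 0 for Astragalus and 0 for Sagunja, and Sagunja against Samul 2. DESeq2 gave 2 for Samul high, 2, 1 and 1 for Astragalus, Sagunja and Samul medium, 1, 2, 1 and 4 for Cnidium, Rehmannia, Cinnamon and Astragalus low, 3 and 2 between doses of Rehmannia and Astragalus, and 2 for Sagunja against Samul. RLE gave 3 for Sagunja high, 1 for Samul medium and 1 for Cnidium low. Library size alone gave 0 for Astragalus high, Cinnamon medium, Rehmannia low and Samul low, and 2 between Rehmannia doses. No filter with no robust option gave 0 for Cnidium, Rehmannia, Astragalus and Samul high, 2 for Sagunja high, 0 for Astragalus medium, 1 for Samul medium, 0 for Rehmannia and Samul low, 3 for Sagunja low and 0 between Astragalus doses. No robust option alone gave 1 for Cnidium low. The replicate block gave 1 for Samul medium, 1 for Cnidium low and 2 between Rehmannia doses.
Leaving out 1 library at a time, the counts at the high dose against vehicle ran from 0 to 2 for Cnidium, 1 to 2 for Rehmannia, 4 to 5 for Cinnamon, 0 to 3 for Astragalus, 1 to 7 for Sagunja and 0 to 6 for Samul. At the medium dose they ran from 0 to 1, 0 to 3, 0 to 2, 0 to 5, 0 to 3 and 0 to 5 in that order, and at the low dose from 0 to 3, 0 to 5, 0 to 3, 2 to 6, 4 to 7 and 0 to 6. Between doses they ran from 1 to 1, 1 to 4, 4 to 6, 1 to 2, 3 to 7 and 1 to 2, and between preparations from 0 to 0 for Cnidium against Rehmannia, 4 to 6 for Cinnamon against Astragalus and 0 to 3 for Sagunja against Samul.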
